A study of Mus musculus with 8 samples.

Results

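Transcript levels of 9 genes of adrenergic, angiotensin and endothelin signalling were examined in RNA-sequencing of mouse hearts. The genes were taken as a list of receptors, a G protein subunit and adenylyl cyclases, and all 9 were found by symbol among the 25929 genes of the table. They were Adrb1, Adra1a and Adra1b (adrenergic receptors), Gnas (G protein subunit), Adcy5 and Adcy6 (adenylyl cyclases), Agtr1a (angiotensin receptor), and Ednra and Ednrb (endothelin receptors). The study compared wild-type (WT) mice with fat-1 mice, which carry a desaturase gene of C. elegans that turns n-6 into n-3 polyunsaturated fatty acids. The strain is labelled C57BL/6 for the WT mice (C57BL/6J in the study's text) and Fat-1 for the transgenic mice, and both were littermates, 3 months old at surgery. Each genotype had sham surgery, in which the chest was opened without constriction, or transverse aortic constriction (TAC), which overloads the left ventricle with pressure. WT mice thus gave the groups WT-Sham and WT-TAC, and fat-1 mice the groups Fat1-Sham and Fat1-TAC. Each group had 2 libraries, named here by group and replicate number. The labels name ventricular tissue and the methods whole hearts, and the promoter that drives the transgene is not given in the sources used here.

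Beta-adrenergic receptors on cardiomyocytes couple through the stimulatory G protein to adenylyl cyclase, whose product cyclic AMP raises the rate and force of the beat. Alpha-1 adrenergic, angiotensin type 1 and endothelin receptors couple mainly through Gq to phospholipase C, and are known for promoting growth of heart muscle and constriction of vessels. Sustained pressure load is known to raise sympathetic and angiotensin signalling in the heart.

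The values are FPKM, fragments scaled to transcript length and library depth. Depth was between 14163994 and 21218331 fragments per library, and every one of the 9 genes had at least 233 fragments in each library. WT-TAC1 stood apart from the other 7 libraries. The 7 of 7 thymocyte markers that were found summed to 1636 FPKM in it and to between 0.928 and 2.63 FPKM elsewhere, with Rag1 listed at 0 in 6 of the other libraries. Its 8 of 8 cardiomyocyte markers summed to 25670 FPKM, against 47010 to 62320 FPKM elsewhere. The 5 of 5 club and airway markers summed to 1520 FPKM in WT-TAC1 and 4027 FPKM in WT-TAC2, to 50.6 FPKM in Fat1-Sham1 and to at most 2.72 FPKM in the others. The 6 of 6 B and plasma cell markers summed to 1042 FPKM in WT-TAC1, 523 FPKM in WT-TAC2 and 509 FPKM in Fat1-TAC2, and to between 10.4 and 17.8 FPKM in the other 5 libraries. The replicates correlated at r = 0.937 over genes in WT-TAC and at r = 0.989 to 0.991 in the other groups. In bulk tissue, fewer cells of a type and less RNA per cell cannot be told apart.

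All 9 genes passed the filter on low values, and 0 of 9 passed the test in any comparison. The test was limma on log2(FPKM + 1) over the 14442 genes that reached 1 FPKM in 2 or more libraries. A gene was called when its p, adjusted by the Benjamini-Hochberg method over these genes, was below 0.1 and its change exceeded 1.5-fold. The genes lay between 4.58 FPKM, for Ednrb in Fat1-Sham2, and 56.95 FPKM, for Agtr1a in Fat1-TAC2. The highest library was between 1.58 times the lowest, for Adcy5, and 3.01 times, for Adra1b. WT-TAC1 was the lowest library for Adrb1, Adra1a, Adra1b, Adcy5 and Agtr1a, and the highest for Adcy6.

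**Figure D1:**
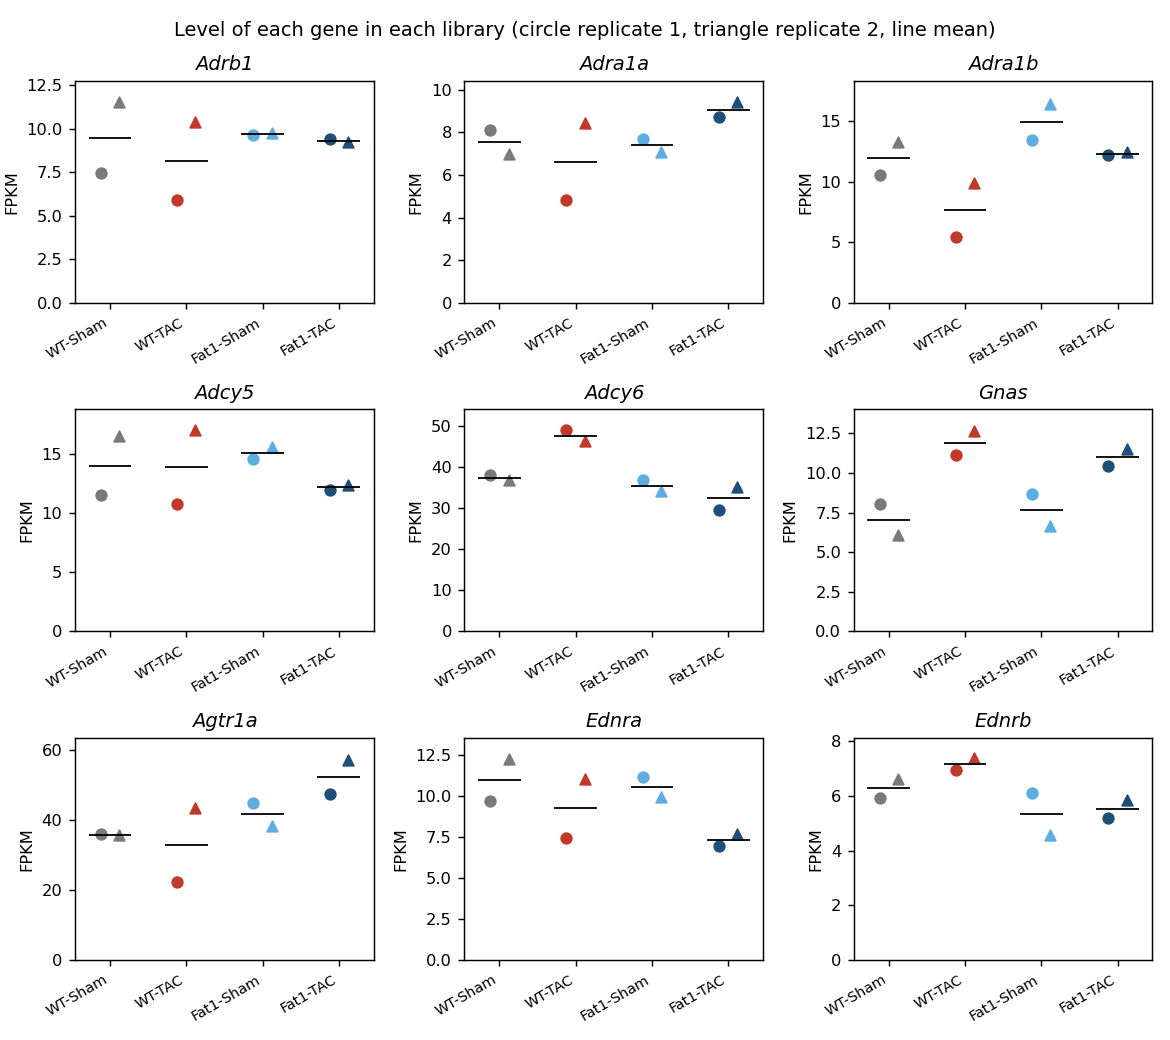
Level of each of the 9 genes in FPKM (y axis, from 0) in the 2 libraries of each group (x axis); circles are replicate 1, triangles replicate 2 and lines group means. Gnas is the 1 gene whose 4 TAC libraries all lie above its 4 sham libraries, and the 2 WT-TAC points lie far apart for Agtr1a, at 22.3 and 43.3 FPKM.

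Adrb1 (chromosome 19, GRCm38, 56722199 to 56733113, plus strand) encodes the beta-1 adrenergic receptor, the main receptor through which noradrenaline speeds and strengthens the heartbeat. Its level was 7.45 and 11.5 FPKM in WT-Sham, 5.89 and 10.4 FPKM in WT-TAC, 9.66 and 9.77 FPKM in Fat1-Sham, and 9.41 and 9.25 FPKM in Fat1-TAC. The 4 fat-1 libraries lay close to one another, inside the range of the WT libraries, where replicates differed by over 4 FPKM. The log2 difference was -0.21 ± 0.29 (SE, n = 2 against 2) for WT-TAC against WT-Sham and -0.05 ± 0.29 for Fat1-TAC against Fat1-Sham (limma, adjusted p = 0.607 and 1).

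Adra1a (chromosome 14, 66635251 to 66771168, plus strand) encodes the alpha-1A adrenergic receptor. It stood at 8.09 and 6.98 FPKM in WT-Sham, 4.84 and 8.42 FPKM in WT-TAC, 7.66 and 7.10 FPKM in Fat1-Sham, and 8.69 and 9.40 FPKM in Fat1-TAC. Both Fat1-TAC libraries were above the other 6, and WT-TAC1 was below them all. The difference between Fat1-TAC and WT-TAC was 0.44 ± 0.26 on the log2 scale (limma, adjusted p = 0.245), and -0.15 when scaled to cardiomyocyte genes.

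Adra1b (chromosome 11, 43774606 to 43901210, minus strand) encodes the alpha-1B receptor and spread most between libraries. Its values were 10.6 and 13.3 FPKM in WT-Sham, 5.45 and 9.89 FPKM in WT-TAC, 13.4 and 16.4 FPKM in Fat1-Sham, and 12.2 and 12.4 FPKM in Fat1-TAC. Both WT-TAC libraries were below the other 6, and both Fat1-Sham libraries were above them. The mean was 7.67 ± 3.15 FPKM (SD, n = 2) in WT-TAC and 12.3 ± 0.17 FPKM in Fat1-TAC, a log2 difference of 0.67 with a 95% interval of 0.01 to 1.32 (limma, unadjusted p = 0.0465, adjusted p = 0.168). Against WT-Sham, WT-TAC was lower by a log2 difference of -0.62 ± 0.28 (limma, adjusted p = 0.186).

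Gnas (chromosome 2, 174284320 to 174346744, plus strand) encodes the stimulatory G protein alpha subunit, which carries the signal from beta receptors to adenylyl cyclase. It was 8.02 and 6.09 FPKM in WT-Sham, 11.1 and 12.6 FPKM in WT-TAC, 8.69 and 6.68 FPKM in Fat1-Sham, and 10.5 and 11.5 FPKM in Fat1-TAC. The 4 TAC libraries were all above the 4 sham libraries, and Gnas was the 1 of 9 genes in which they did not overlap in that direction. Of all genes tested, 7.82% lay that way, and 1.45% had all TAC libraries below all sham libraries, as did 0 of the 9 genes. Averaged over genotypes, TAC was higher by 0.58 ± 0.15 on the log2 scale, a ratio of 1.49 (limma, unadjusted p = 0.0065, adjusted p = 0.256). This was 0.37 above the median of all genes in that comparison, and TAC was also the higher under each of 3 other scalings. The log2 difference was 0.69 ± 0.22 in WT and 0.47 ± 0.22 in fat-1 mice, and the interaction of genotype and surgery was -0.21 ± 0.31 (limma, adjusted p = 0.698).

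The Gnas values rest on 233 to 466 fragments and cover a locus of 24 annotated transcripts, of which 22% of the exonic bases also belong to a gene on the opposite strand. One of these, Gm20721, is annotated as protein-coding and covers 85.4% of the bases of the 12-exon coding transcript Gnas-208. The library kit does not mark strand, so a fragment there cannot be given to either gene by its strand. Gm20721 itself was listed at no more than 0.0743 FPKM in any library, and the way fragments in shared exons were counted is not given in the sources used here. Its exons are shown because they set what a Gnas value can count. Below, from the GENCODE M21 transcript on the plus strand of GRCm38, capitals mark the bases that Gm20721 exons cover on the opposite strand, in the 45-base exon at chr2:174336747-174336791 and the 74-base exon at chr2:174345228-174345301.
Gnas-208 exon 3: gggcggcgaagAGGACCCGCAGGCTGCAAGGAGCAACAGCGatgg
Gnas-208 exon 8: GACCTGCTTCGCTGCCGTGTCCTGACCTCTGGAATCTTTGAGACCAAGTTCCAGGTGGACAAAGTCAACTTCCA
In exon 3, 30 of 45 bases were covered, and in exon 8 all 74, with the reverse complement of the Gm20721 exon identical over the shared bases. How much of the stimulatory alpha subunit mRNA the Gnas values hold was not tested.

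Adcy5 (chromosome 16, 35154877 to 35305738, plus strand) and Adcy6 (chromosome 15, 98589973 to 98610076, minus strand) encode the main adenylyl cyclases of cardiomyocytes. Adcy5 was 11.5 and 16.5 FPKM in WT-Sham, 10.8 and 17.1 FPKM in WT-TAC, 14.6 and 15.6 FPKM in Fat1-Sham, and 11.99 and 12.4 FPKM in Fat1-TAC. Replicate 2 was above replicate 1 by over 4 FPKM in both WT groups, so both ends of its range were WT libraries of the same surgery. The WT-TAC against WT-Sham difference of Adcy5 was -0.02 ± 0.26 on the log2 scale, with a 95% interval of -0.63 to 0.59.

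Adcy6 was 37.96 and 36.7 FPKM in WT-Sham, 48.9 and 46.2 FPKM in WT-TAC, 36.8 and 34.04 FPKM in Fat1-Sham, and 29.5 and 35.2 FPKM in Fat1-TAC. The 2 WT-TAC libraries were the highest 2 of the 8. The mean was 47.6 ± 1.95 FPKM in WT-TAC and 32.3 ± 4.04 FPKM in Fat1-TAC (SD, n = 2 each), a log2 difference of -0.55 ± 0.15 (limma, unadjusted p = 0.0075, adjusted p = 0.150). The median gene of that comparison stood at -0.40, so that Adcy6 was 0.14 below the median. From WT-Sham to WT-TAC the difference of Adcy6 was 0.34 ± 0.15 (limma, adjusted p = 0.182), where the median gene stood at 0.39, and -0.13 with median-of-ratios scaling. The interaction was -0.47 ± 0.21 on the log2 scale, the lowest of the 9 genes (limma, adjusted p = 0.495). Of the exonic bases of Adcy6, 8.92% are shared with the antisense gene Gm29331, from which its reads cannot be told apart by strand.

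Agtr1a (chromosome 13, 30336441 to 30382867, plus strand) encodes the type 1a angiotensin II receptor, through which angiotensin raises blood pressure. It stood at 35.8 and 35.6 FPKM in WT-Sham, 22.3 and 43.3 FPKM in WT-TAC, 44.8 and 38.3 FPKM in Fat1-Sham, and 47.3 and 56.95 FPKM in Fat1-TAC. The 4 fat-1 libraries were all above both WT-Sham libraries and WT-TAC1, while WT-TAC2 lay between the 2 Fat1-Sham libraries. Fat1-TAC was higher than WT-TAC by 0.72 ± 0.29 on the log2 scale, with a 95% interval of 0.04 to 1.40 (limma, unadjusted p = 0.0414, adjusted p = 0.167). The SD between the 2 WT-TAC libraries, 14.8 FPKM, was far above that of WT-Sham, 0.19 FPKM.

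Ednra (chromosome 8, 77663031 to 77724464, minus strand) encodes the endothelin A receptor, which constricts smooth muscle. Its values were 9.74 and 12.3 FPKM in WT-Sham, 7.48 and 11.03 FPKM in WT-TAC, 11.2 and 9.97 FPKM in Fat1-Sham, and 6.96 and 7.67 FPKM in Fat1-TAC. In fat-1 mice both TAC libraries were below both sham libraries, and in WT mice the groups overlapped. The log2 difference was -0.48 ± 0.23 in fat-1 mice and -0.24 ± 0.23 in WT mice (limma, adjusted p = 1 and 0.459), and that in WT mice was 0.28 when scaled to cardiomyocyte genes.

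Ednrb (chromosome 14, 103814625 to 103844402, minus strand) encodes the endothelin B receptor, which is abundant on endothelium. It was 5.92 and 6.61 FPKM in WT-Sham, 6.96 and 7.37 FPKM in WT-TAC, 6.10 and 4.58 FPKM in Fat1-Sham, and 5.20 and 5.86 FPKM in Fat1-TAC. Both WT-TAC libraries were the highest of the 8, and the fat-1 groups overlapped. The log2 difference was 0.17 ± 0.21 in WT mice and 0.05 ± 0.21 in fat-1 mice (limma, adjusted p = 0.565 and 1), and that in WT mice was -0.24 with median-of-ratios scaling.

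For several genes above, both libraries of 1 group lay beyond all others or, as for Ednra in fat-1 mice, beyond those of another group. The share of all genes that did so was not counted. The comparisons were then read over all 9 genes. In Fat1-Sham against WT-Sham, 0 of 9 genes were called, against 0% of all genes in each direction, and 0 had an unadjusted p under 0.05, against 1.25% of all genes. In WT-TAC against WT-Sham, 0 of 9 were called, against 0.921% of all genes called up and 0.0138% called down. An unadjusted p under 0.05 was found for 1 of 9 (Gnas), a smaller share than the 27.5% of all genes. In Fat1-TAC against Fat1-Sham, 0 of 9 were called, against 0.00692% up and 0% down, and 0 had an unadjusted p under 0.05, against 2.58% of all genes. In Fat1-TAC against WT-TAC, 0 of 9 were called, against 0.0346% up and 1.39% down. An unadjusted p under 0.05 was found for 3 of 9 (Adra1b, Adcy6 and Agtr1a), near the share of 29.4% of all genes. For the interaction, 0 of 9 were called, against 0.00692% up and 0.0623% down, and 0 had an unadjusted p under 0.05, against 7.26% of all genes. For TAC against sham averaged over genotypes, 0 of 9 were called, against 0% in each direction, and 1 (Gnas) had an unadjusted p under 0.05, near the 15.8% of all genes. limma-voom on fragment counts recovered from the FPKM values also called 0 of 9 in each of the 6 comparisons.

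The 2 comparisons that hold WT-TAC share those libraries, and their values are given side by side. In WT-TAC against WT-Sham, the median log2 difference was -0.19 for the 9 genes and 0.39 for all genes tested, and 1 of 9 (Gnas) was above the latter. In Fat1-TAC against WT-TAC, the medians were -0.10 and -0.40, and 8 of 9 genes (all but Adcy6) were above the median of all genes. In Fat1-Sham against WT-Sham, which holds no WT-TAC library, the medians were 0.06 and -0.01, and in Fat1-TAC against Fat1-Sham -0.05 and 0.02. Scaling by the median of ratios, which brings the median of all genes to -0.02 in WT-TAC against WT-Sham, turned the values of Adcy6 and Ednrb there to -0.13 and -0.24.

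**Figure D2:**
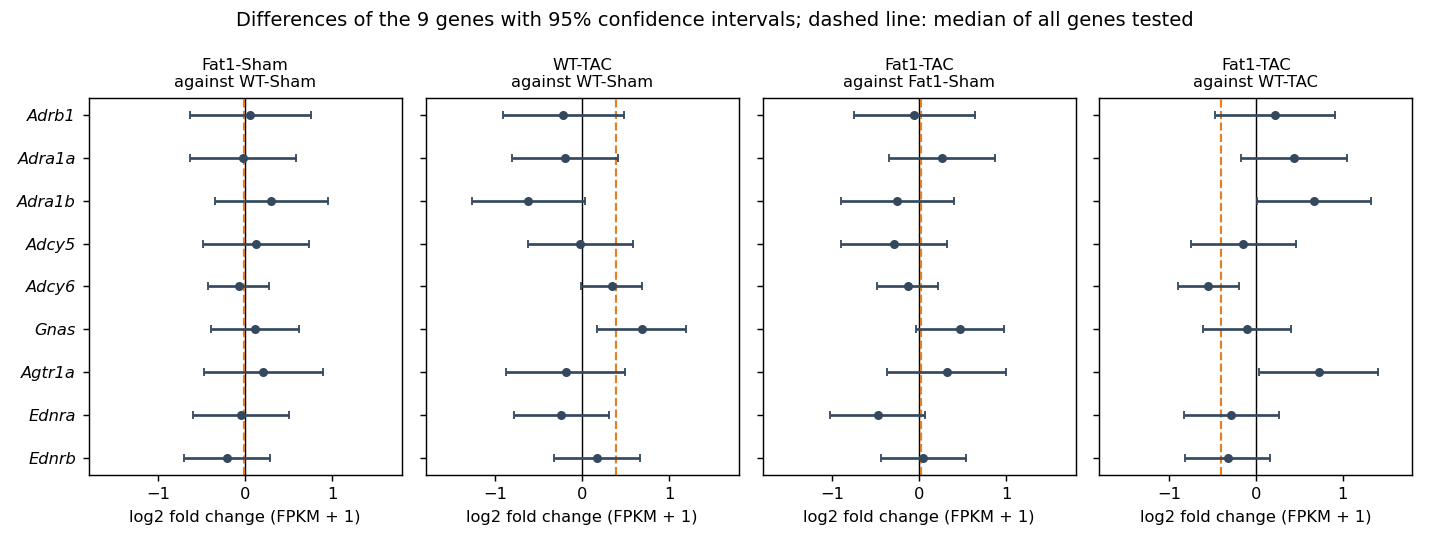
Log2 differences of the 9 genes on the log2(FPKM + 1) scale (x axis) in the 4 pairwise comparisons (panels), with 95% confidence intervals as bars; the dashed line is the median of all 14442 genes tested. In WT-TAC against WT-Sham that median is 0.39 and 8 of the 9 points lie to its left, and in Fat1-TAC against WT-TAC it is -0.40 and 8 of 9 lie to its right.

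The 2 WT-TAC libraries differed more from each other than the replicates of other groups did. Over 2-fold apart (on FPKM + 1) were 3478 genes, against 300 to 390 in the other groups. With WT-TAC1 as the lone library of its group, 3 of 9 genes were called against WT-Sham (limma with the spread pooled over groups, which assumes that the lone library varies like the others). They were Gnas at 0.60, Agtr1a at -0.65 and Adra1b at -0.995 (limma, adjusted p = 0.0488, 0.0107 and 0.00397). In that fit 44% of all genes were called up and 6.51% down. With WT-TAC2 as the lone library, 0 of 9 were called, beside 0.137% of all genes up and 0.0072% down. There Agtr1a stood at 0.27 and Adra1b at -0.24 (limma, adjusted p = 0.393 and 0.507), and Gnas at 0.77 (limma, adjusted p = 0.251). Against Fat1-TAC, WT-TAC1 alone gave 4 calls (Adra1a 0.78, Adra1b 1.04 and Agtr1a 1.18 higher in Fat1-TAC, and Adcy6 -0.59), where 7.72% of all genes were called up and 46.1% down. WT-TAC2 alone gave 0 calls, with Agtr1a at 0.26 and Adra1b at 0.29, where 0.0144% of all genes were called up and 0.166% down. WT-TAC1 alone also gave 3 calls for the interaction (Adra1a, Adra1b and Agtr1a), beside 6.43% of all genes up and 39.3% down, and 1 for TAC against sham over genotypes (Adra1b), beside 24.1% up and 1.39% down. The sign of the WT-TAC against WT-Sham difference was thus the same with each library alone for Adra1b, Adcy6, Gnas and Ednrb. For Adrb1, Adra1a, Adcy5, Agtr1a and Ednra it was negative with WT-TAC1 alone and positive with WT-TAC2 alone.

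**Figure D3:**
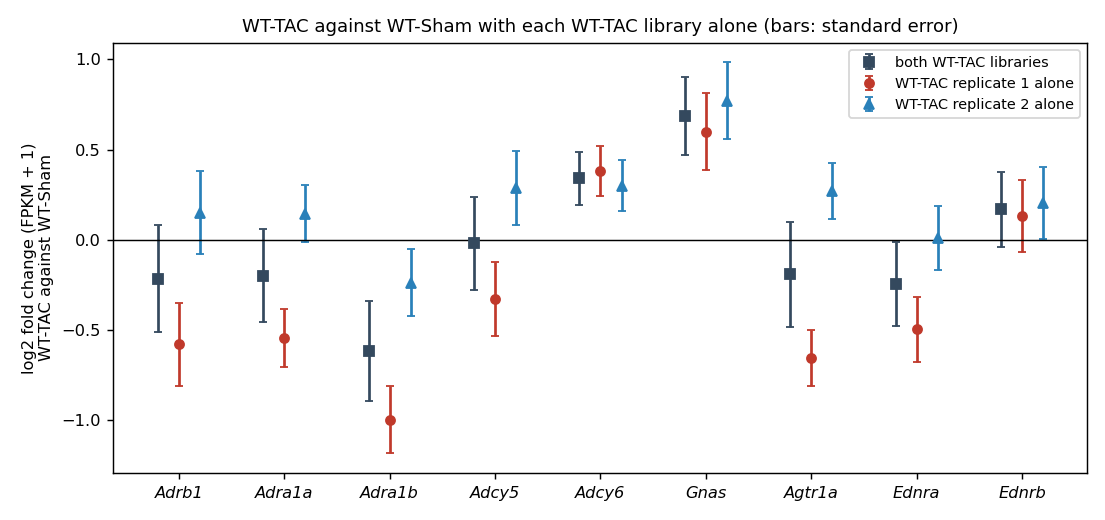
Log2 difference of WT-TAC against WT-Sham (y axis) for each gene (x axis) with both WT-TAC libraries (squares), with WT-TAC1 alone (circles) and with WT-TAC2 alone (triangles); bars are standard errors. Agtr1a lies at -0.65 with WT-TAC1 alone and at 0.27 with WT-TAC2 alone, whereas Gnas lies at 0.60 and 0.77.

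The same values were set against the cardiomyocyte markers, whose geometric mean in WT-TAC1 was 0.526 of its geometric mean over the libraries. After scaling to it, the 2 WT-TAC libraries stood at 42.5 and 44.6 FPKM for Agtr1a, at 11.2 and 10.7 FPKM for Adrb1, at 9.20 and 8.67 FPKM for Adra1a, and at 10.4 and 10.2 FPKM for Adra1b. For these 4 receptor genes, and for Adcy5 (20.5 and 17.6 FPKM) and Ednra (14.2 and 11.4 FPKM), the WT-TAC libraries lay closer together on this scale than as deposited. They lay farther apart for Adcy6, at 93.0 and 47.6 FPKM, for Gnas, at 21.1 and 13.0 FPKM, and for the receptor Ednrb, at 13.2 and 7.60 FPKM. All genes of a library were divided by the same factor, 0.526 in WT-TAC1 and 0.971 in WT-TAC2. This split thus restates which genes were much lower in WT-TAC1 than in WT-TAC2 as deposited. The share of all genes that came closer was not counted. Under this scaling the log2 difference of Agtr1a between WT-TAC and WT-Sham was 0.37. There 0 of 9 genes were called in WT-TAC against WT-Sham, beside 1.6% of all genes up and 0.00685% down, and 0 of 9 in Fat1-TAC against WT-TAC, beside 0.0205% up and 3.37% down. The part of cell content in the differences was not tested.

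Ratios within a library cancel its scaling but not its mix of cells, and 3 pairs of related genes were compared so. Over the libraries, smooth muscle and pericyte markers summed to 349.3 to 552 FPKM and vascular endothelium markers to 199.3 to 301.8 FPKM. The part of cell content in the ratios was not tested. Ednra to Ednrb was 1.64 and 1.86 in WT-Sham, 1.07 and 1.496 in WT-TAC, 1.83 and 2.18 in Fat1-Sham, and 1.34 and 1.31 in Fat1-TAC. The 4 TAC libraries were all below the 4 sham libraries, and the ratio of FPKM was above 1 in every library. In WT-TAC1, where it was 1.07, Ednra had fewer fragments than Ednrb, 502 against 543, divided by lengths of 3386 and 3934 bases. On the log2 scale, the mean ratio was 0.37 ± 0.20 (SD, n = 4) after TAC and 0.90 ± 0.17 after sham, a difference of -0.53. The exact two-sided permutation test gave p = 0.0286, the smallest that 4 against 4 libraries can give, and an adjusted p of 0.171 over the 6 ratio tests. Without WT-TAC1 the difference was -0.44. Without Fat1-Sham2 the exact permutation p was 0.0571 and the adjusted p 0.343. Without WT-Sham1 the exact permutation p was again 0.0286, and the adjusted p was 0.0857, below the threshold of 0.1, since Adra1a to Adra1b then had the same p.

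Adra1a to Adra1b was 0.767 and 0.525 in WT-Sham, 0.889 and 0.851 in WT-TAC, 0.572 and 0.433 in Fat1-Sham, and 0.714 and 0.757 in Fat1-TAC. Within each genotype both TAC libraries were above both sham libraries, and over both genotypes the groups overlapped through WT-Sham1. How often other gene pairs separate within each genotype was not counted. The log2 difference of TAC against sham was 0.51 (exact two-sided permutation test, p = 0.0857, adjusted p = 0.257), and without Fat1-Sham2 it was 0.38 (adjusted p = 0.343). Without WT-Sham1, the library through which the groups overlapped, it was 0.66 (adjusted p = 0.0857, below the threshold). Adcy5 to Adcy6 was between 0.221, in WT-TAC1, and 0.460, in Fat1-Sham2, and TAC and sham overlapped (log2 difference -0.27, exact two-sided permutation test, p = 0.343, adjusted p = 0.411). Between genotypes, the log2 differences of fat-1 against WT were 0.31 for Adcy5 to Adcy6, -0.30 for Adra1a to Adra1b and 0.13 for Ednra to Ednrb (exact two-sided permutation tests, adjusted p = 0.386, 0.386 and 0.686).

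**Figure D4:**
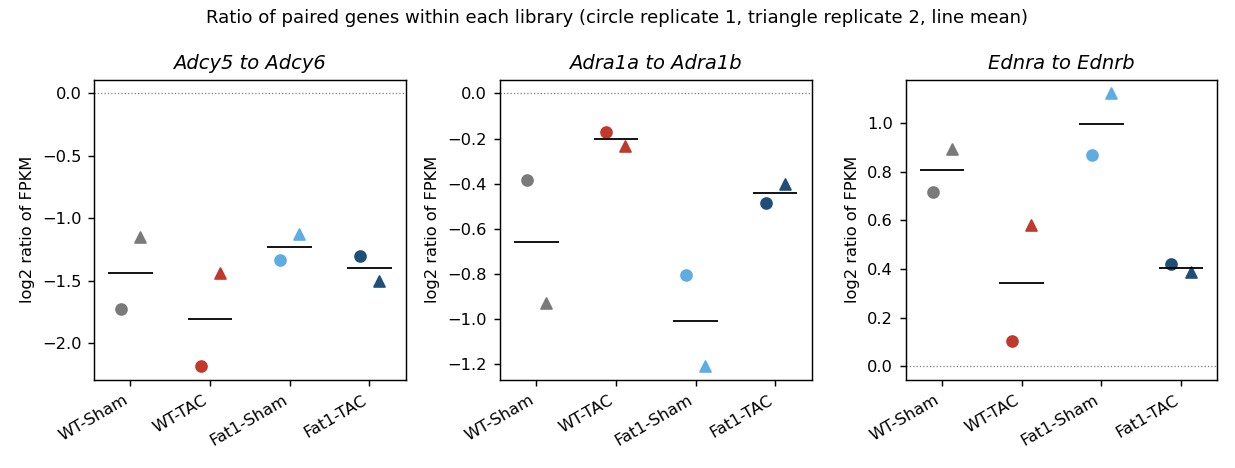
Log2 ratio of FPKM within each library (y axis) for 3 gene pairs (panels) by group (x axis); circles are replicate 1, triangles replicate 2 and lines group means. For Ednra to Ednrb, the 4 TAC libraries lie between 0.10 and 0.58 and the 4 sham libraries between 0.72 and 1.12.

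Levels between genes depend on the gene length by which fragments were divided. In the deposited values Agtr1a (40.6 ± 10.2 FPKM, SD over 8 libraries) and Adcy6 (38.2 ± 6.38) were highest, and each was above the other in 4 of 8 libraries. They were followed by Adcy5 (13.8 ± 2.44), which was below Adcy6 in 8 of 8 libraries, then Adra1b (11.7), Ednra (9.54), Gnas (9.40), Adrb1 (9.17), Adra1a (7.65) and Ednrb (6.08). From Adcy5 down, no neighbours in this order kept their order in every library. Agtr1a had been divided by 745 bases, the mean of its 6 annotated transcripts, of which the longest has 2199 bases. With the longest transcript as length, a setting chosen after the values were seen, Agtr1a stood at 13.7 FPKM, behind Adcy6 at 38.03 and beside Adcy5 at 13.8, and Gnas at 4.89 FPKM, the lowest of the 9. The length matched the mean of the annotated transcripts within 1 base for 5 of the 9 genes, and a gene's length is the same in every library.

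**Figure D5:**
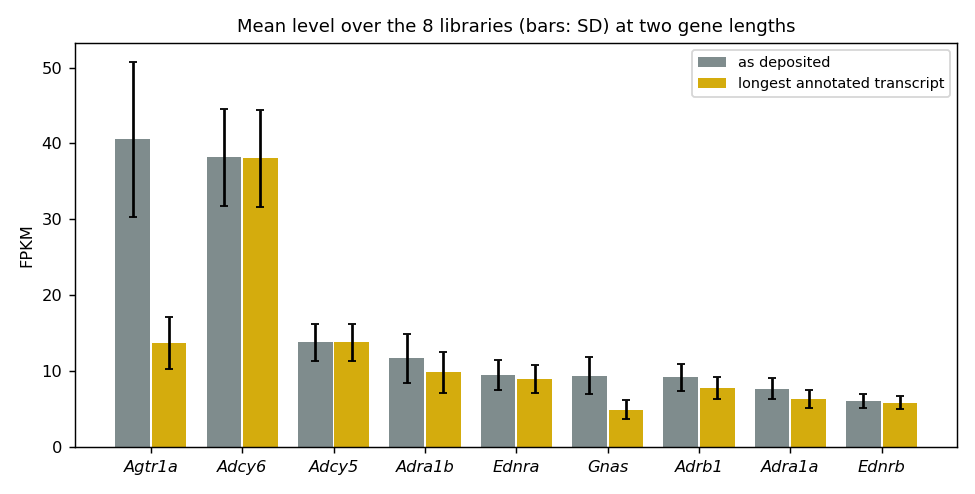
Mean FPKM over the 8 libraries (y axis, from 0; bars are SD) for each gene (x axis), as deposited (grey) and with the longest annotated transcript as length (yellow). Agtr1a goes from 40.6 to 13.7 FPKM, and Adcy6 stays at 38.2 and 38.03 FPKM.

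Of 122 other genes listed for these pathways, 121 were found and 97 passed the filter, and 1 was called in any comparison, down in Fat1-TAC against WT-TAC, where 1.39% of all genes were. By list, the calls in either direction over the 6 comparisons were 0 of 3 other adrenergic receptors, 0 of 7 receptor kinases and arrestins, 0 of 9 G protein alpha subunits, 0 of 5 other adenylyl cyclases and 0 of 14 phosphodiesterases. They were 0 of 18 genes of protein kinase A, Epac and anchoring, 0 of 13 of phospholipase C, IP3 receptors and protein kinase C, 0 of 6 RGS genes, 1 of 11 renin-angiotensin genes, 0 of 4 endothelin ligands and converting enzymes, and 0 of 7 catecholamine genes. The called gene was Cma1, a mast cell chymase that can form angiotensin II, at 2.50 and 2.68 FPKM in WT-Sham, 9.35 and 6.12 FPKM in WT-TAC, 1.52 and 1.62 FPKM in Fat1-Sham, and 1.54 and 2.82 FPKM in Fat1-TAC. It was lower in Fat1-TAC than in WT-TAC by a log2 difference of -1.46 ± 0.29 (limma, adjusted p = 0.0997), a call that was kept in 1 of 16 alternatives, the fit with WT-TAC1 as the lone WT-TAC library, and lost in the other 15, among them all 3 other scalings. The median log2 difference over the 97 genes was 0.28 when WT-TAC was set against WT-Sham, beside 0.39 for all genes, and -0.34 when Fat1-TAC was set against WT-TAC, beside -0.40.

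Among ligands and enzymes, Edn1, the endothelin precursor, was between 1.35 and 2.53 FPKM. Agt, the angiotensin precursor, was between 0.934 and 3.22 FPKM, and Ace, the enzyme that forms angiotensin II, between 19.0 and 34.7 FPKM. Ece1, which activates endothelin, was at 59.7 to 86.9 FPKM. Among receptors outside the 9, Agtr1b and Agtr2 were at most 0.0801 and 0.0313 FPKM, so of these 3 angiotensin receptor genes Agtr1a alone was above 1 FPKM.

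Adrb3, the beta-3 receptor of fat cells, was 4.52 and 5.27 FPKM in WT-Sham, 18.9 and 23.4 FPKM in WT-TAC, 8.54 and 1.19 FPKM in Fat1-Sham, and 0.113 and 5.03 FPKM in Fat1-TAC. It was highest in the libraries in which the 6 of 6 adipocyte markers found summed to most, 612 and 792 FPKM in WT-TAC against 6.23 to 295 FPKM elsewhere, and lowest in Fat1-TAC1, where they summed to least. The part of fat cells in its values was not tested.

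Downstream, Gnai2, an inhibitory G protein alpha subunit, was the most abundant of its list at 262.5 to 469.5 FPKM, with WT-TAC1 highest. Grk2, the receptor kinase that desensitizes beta receptors, was 170.5 FPKM in WT-TAC1 and between 38.2 and 49.3 FPKM in the other 7 libraries. Adcy7 was 19.4 FPKM in WT-TAC1 and 3.94 to 9.14 FPKM elsewhere, and Itpr1, an IP3 receptor, 42.7 FPKM in WT-TAC1 and 17.5 to 29.5 FPKM elsewhere. WT-TAC1 is also the library with the thymocyte markers at 1636 FPKM, whose part in these values was not tested. Popdc2, a cyclic AMP-binding membrane protein of heart muscle, was 153 FPKM in WT-TAC1 and 283 to 397 FPKM elsewhere, and Prkar1a, a regulatory subunit of protein kinase A, 256 to 307 FPKM in all 8.

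Rgs2, which limits Gq signalling, was 27.7 and 36.7 FPKM in WT-Sham and 42.1 and 42.5 FPKM in WT-TAC. In fat-1 mice it was 34.7 and 20.6 FPKM after sham and 21.4 and 19.4 FPKM after TAC. The log2 difference of Fat1-TAC against WT-TAC was -1.02 ± 0.26 (limma, adjusted p = 0.142), where the median of all genes was -0.40. Rgs5, a pericyte gene, was between 125 and 256 FPKM, Arrb1 between 13.9 and 27.3 FPKM and Plcb4 between 33.6 and 54.5 FPKM. The remaining genes that led their lists, Gna12, Pde7a, Pde4a, Maob, Ddc, Ece2, Adcy4, Agtrap and Ctsd, were not called in any comparison.

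Across the 8 libraries, genes most like each of the 9 among 9496 other genes with a mean of 5 FPKM or more were found by Pearson's r of log2(FPKM + 1). They were Rbpms and Ehbp1 for Adrb1 (r = 0.976 and 0.969), Podxl and Esam for Adra1a (0.986 and 0.979), Rtn4ip1 and Fam189a2 for Adra1b (0.990 and 0.987), and AI464131 and 2610507B11Rik for Adcy5 (0.948 each). For Adcy6 they were Arfgap3 and Ezh1 (0.980 and 0.979), for Gnas Sh2b3 (0.956), and for Agtr1a Coro6 and Lrrc15 (0.986 and 0.984). For Ednra they were Tmem14c and Cpe (0.981 and 0.968), and for Ednrb Gprc5b and Atp2b4 (0.989 and 0.985). Among the 9 themselves, r depended on WT-TAC1 for several pairs. The highest r over 8 libraries was 0.94, between Adra1a and Agtr1a, which was 0.82 without WT-TAC1. The highest without WT-TAC1 was 0.89, between Adra1a and Gnas, which was 0.17 with it. Adra1a with Adra1b went from 0.62 to -0.56 without that library, and Adrb1 with Adra1a from 0.58 to -0.39. All of these values rest on the same 8 libraries and share their scaling. The named neighbours were picked as the highest among 9496 genes, and such picking over 8 libraries gives high r by itself. Their r without WT-TAC1 was not computed.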

How the data were processed

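The authors isolated RNA with TRIzol, prepared libraries with the NEBNext Ultra kit, sequenced them on an Illumina HiSeq and deposited FPKM values per gene and library. The submitters' processing notes name HISAT2 and the builds mm10 and GRCm38, without versions, and the counting program is not given in the sources used here. The members and gene lists were chosen with earlier results of these data known.

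From the FPKM values, limma (version 3.58.1, R 4.3.3; lmFit, eBayes with trend) was run on log2(FPKM + 1) with 4 group means in 8 libraries and a filter of 1 FPKM in at least 2 libraries. Genes were called at an adjusted p under 0.1 and 1.5-fold. The labels describe independent samples. Named pathway genes were those called, the 2 of each list with the highest mean, and Edn1, Agt, Ace, Agtr1b and Agtr2. Some genes under the naming rules are not reported here. Fragments and lengths were recovered as whole numbers (tolerance 0.02) for 100% of the 25929 genes. For 22925 of them the length came from the GENCODE M21 annotation. For the rest, the shortest length that gave whole numbers was searched for and taken. On data simulated for WT-TAC against WT-Sham with 13254 genes, 83.7% of 2-fold and 100% of 4-fold changes were called, beside 18 false calls. The simulation gave every library the same spread. In the real data, 3478 genes differed over 2-fold (on FPKM + 1) between the WT-TAC replicates, against 300 to 390 in the other groups. The simulated shares thus do not measure what could be called here. The replicate numbers did not pair the samples. Alternatives are given under the closing section.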

Additional observations from a re-analysis of the deposited data

How the results depend on the processing

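Of 900 alternative readings of 54 log2 differences of the 9 genes, 813 kept their direction and their side of the threshold, 76 reversed and 11 passed the threshold, all 11 without WT-TAC replicate 2. Part of the 900 could not turn a direction. Dropping a WT-TAC library, for example, left Adrb1 in Fat1-Sham against WT-Sham at 0.05883, since neither group holds it. Other filters and the replicate block also leave a log2 difference as it is. The 813 thus overstate how stable the directions were, and the readings fixed in this way were not counted. Of the reversals, 44 came from 3 other scalings and 32 from leaving out a library, and the cause was not tested. With median-of-ratios scaling, the values were 0.0091 for Adra1a in Fat1-Sham against WT-Sham, -0.13 for Adcy6 and -0.24 for Ednrb in WT-TAC against WT-Sham, 0.28 for Adcy5, 0.33 for Gnas, 0.13 for Ednra and 0.077 for Ednrb in Fat1-TAC against WT-TAC, 0.12, 0.18, 0.14 and 0.25 for the same 4 genes in the interaction, and -0.19 for Adra1a, -0.15 for Adcy6, -0.19 for Agtr1a and -0.11 for Ednrb in TAC against sham. With quantile normalization they were, in the same order, 0.012 for Adra1a, then -0.37 for Ednrb, then 0.37, 0.41, 0.23 and 0.20, then 0.24, 0.27, 0.27 and 0.36, then -0.25, -0.051, -0.14 and -0.19, and -0.016 for Ednrb in Fat1-TAC against Fat1-Sham. Scaled to cardiomyocyte genes they were -0.044 for Adrb1 in Fat1-Sham against WT-Sham, 0.30 for Adrb1, 0.30 for Adra1a, 0.52 for Adcy5, 0.37 for Agtr1a and 0.28 for Ednra in WT-TAC against WT-Sham, -0.38 for Adrb1 and -0.15 for Adra1a in Fat1-TAC against WT-TAC, -0.34 for Adrb1, -0.031 for Adra1a, -0.13 for Adra1b and -0.034 for Agtr1a in the interaction, and 0.13 for Adrb1 and 0.13 for Adcy5 in TAC against sham.

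Leaving out 1 library at a time, the values ranged in Fat1-Sham against WT-Sham from -0.22 to 0.34 for Adrb1, -0.12 to 0.070 for Adra1a, -0.12 to 0.37 for Adcy5, -0.064 to 0.28 for Gnas and -0.20 to 0.11 for Ednra. In WT-TAC against WT-Sham they ranged from -0.58 to 0.15 for Adrb1, -0.54 to 0.15 for Adra1a, -0.33 to 0.29 for Adcy5, -0.65 to 0.27 for Agtr1a and -0.49 to 0.011 for Ednra, and in Fat1-TAC against Fat1-Sham from -0.12 to 0.23 for Ednrb. In Fat1-TAC against WT-TAC they ranged from -0.14 to 0.58 for Adrb1 and -0.45 to 0.16 for Adcy5. In the interaction they ranged from -0.20 to 0.52 for Adrb1, -0.013 to 0.74 for Adra1b, -0.57 to 0.042 for Adcy5, -0.49 to 0.019 for Ednra and -0.29 to 0.056 for Ednrb. In TAC against sham they ranged from -0.32 to 0.048 for Adrb1, -0.14 to 0.20 for Adra1a, -0.31 to 0.0013 for Adcy5 and -0.17 to 0.29 for Agtr1a. The number of the 9 genes called ranged from 0 to 3 in WT-TAC against WT-Sham, 0 to 4 in Fat1-TAC against WT-TAC, 0 to 3 in the interaction and 0 to 1 in TAC against sham. Without WT-Sham replicate 1, the log2 ratios of Ednra to Ednrb and of Adra1a to Adra1b between TAC and sham passed the threshold (exact permutation test, adjusted p = 0.0857 each), WT-Sham replicate 1 being the library through which the latter overlapped. Without Fat1-Sham replicate 2 both had an adjusted p of 0.343. Over the left-out libraries they ranged from -0.60 to -0.44 and from 0.38 to 0.66. Ednra to Ednrb between genotypes ranged from -0.030 to 0.23.

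With the replicate number as a block, 0 of the 9 genes were called in each comparison, as without the replicate block, and same-numbered libraries did not deviate together (correlations -0.135 to 0.024). With the longest annotated transcript as gene length, an alternative added after the data were seen, Agtr1a had a mean of 13.7 FPKM and Gnas of 4.89 FPKM, against 40.6 and 9.40 FPKM as deposited. Over all genes, the 133 up and 2 down calls of WT-TAC against WT-Sham became 23 and 0 with median-of-ratios scaling, 233 and 1 scaled to cardiomyocyte genes, 286 and 7 without a filter, and 6 and 0 with limma-voom. With 2 libraries a group, the standard errors of 0.15 to 0.29 on the log2 scale limit what can be seen in the pairwise comparisons.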
